A study of Mus musculus with 18 samples.

Results

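The G1/S and DNA replication genes are 42 genes chosen by symbol for their role in origin licensing, helicase activation, DNA synthesis, nucleotide supply or entry into S phase. All 42 were found among the 55573 genes of the deposited table, and all 42 passed the minimum for testing (at least 1 TPM in at least 6 libraries), as did 15216 genes in all. No measured value was used to choose them, but the choice was made with earlier results of these data known.

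Total RNA was sequenced from cultured neural progenitor cells of the cortex of C57BL/6 mice, in 3 groups of 6 libraries that the labels number 3, 4, 5, 6, 8 and 9. The Upf2 mock group had Upf2 fl/fl cells given medium without virus. The Upf2 Cre group had Upf2 fl/fl cells infected with AAV9-Cre, an adeno-associated virus that carries Cre recombinase. The Upf2 Trp53 Cre group had Upf2 fl/fl Trp53 fl/fl cells infected with the same virus. Every group therefore carried floxed Upf2 alleles, and cells were harvested at 72 h, with the virus-containing medium removed at 14 h. The product of Upf2 acts in nonsense-mediated mRNA decay, and Trp53 encodes p53. The series title asks how these pathways interact in progenitors. There was no mock group of the doubly floxed line and no virus without Cre among the samples, so the Trp53 genotype cannot be told apart from the line, nor Cre from infection. Each library is called a biological replicate in the labels. Whether these came from separate animals is not stated there, so p-values measure the spread between these cultures.

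Before S phase, the origin recognition complex, CDC6 and CDT1 load the MCM2-7 helicase onto origins. CDC45 and the GINS complex then turn MCM2-7 into the active helicase, primase and the polymerases copy the strands behind it, and PCNA, its clamp loader RFC and the single-strand binding protein RPA keep synthesis going. Many of these genes are transcribed under E2F factors, and the p53 target p21, product of Cdkn1a, is a known brake on this programme in dividing progenitors.

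Values are TPM, transcript abundance per length scaled to a fixed total in each library, so depth is unknown and all values of a library depend on its other genes. In Upf2 Cre replicate 6 the gene Gm23935 alone had 141092 TPM, against at most 20334 TPM in any other library. Log2 differences are on the log2(TPM + 1) scale with standard errors (SE) from limma, which understates changes of low genes. "Rose" and "fell" mean a Benjamini-Hochberg adjusted p under 0.05 over all 15216 genes. In bulk RNA, fewer S-phase cells and less replication mRNA per cell cannot be told apart.

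Libraries numbered 3 stood apart before any test. The 42 genes summed to 1163 TPM in the mock library numbered 3 and to between 3664 and 5060 TPM in the other 5 mock libraries. In that library all 42 genes lay below the mock median, but so did 40 in mock replicate 9. The median log2 ratio to the mock median was -1.91 in mock replicate 3 and -0.17 in mock replicate 9. The intermediate-progenitor marker sum was 669 TPM in mock replicate 3, against 85.9 to 204 TPM in the other mock libraries. The same sum was 528 to 1138 TPM in Upf2 Cre and 494 to 1072 TPM in Upf2 Trp53 Cre, so both Cre groups lay above the 5 other mock libraries. That list of 5 genes had 3 above the minimum, Btg2, Insm1 and Gadd45g, and its defining markers Eomes and Neurog2 were below it. In Upf2 Cre against mock the 3 tested genes ran from -0.03 to 3.44 (Gadd45g) on the log2 scale, with a median of -0.02. In Upf2 Trp53 Cre against mock they ran from -1.04 to 3.49, with a median of 0.16. The higher sums were thus not shared by all 3 genes. In the Upf2 Cre group the member sums were 2992 TPM in replicate 3 and 3305 TPM in replicate 4, against 1374 to 2057 TPM in the other 4. Upf2 Trp53 Cre libraries spanned 3003 to 3840 TPM. The radial glia markers were present throughout. Their sums were 5431 to 14269 TPM in mock, 3786 to 10556 TPM in Upf2 Cre and 5033 to 10997 TPM in Upf2 Trp53 Cre. Without replicate 3 they were 5431 to 14269, 3786 to 5692 and 5033 to 7407 TPM in the same groups. Oligodendrocyte-lineage sums were 1510 to 3311 TPM in mock, 1379 to 4055 TPM in Upf2 Cre and 1101 to 3417 TPM in Upf2 Trp53 Cre. Group medians in that order were 2613, 3342 and 2390 TPM, against 10641, 4885 and 6295 TPM for radial glia. The microglia sum was at most 1.15 TPM. Trp53 was at 81.4 to 136 TPM in mock and 14.0 to 18.4 TPM in Upf2 Trp53 Cre. Upf2 was at 6.54 to 15.8 TPM in mock, 14.3 to 27.6 TPM in Upf2 Cre and 23.5 to 44.4 TPM in Upf2 Trp53 Cre, which goes against a lost transcript. A gene-level TPM does not measure the deletion, so "the libraries labelled Upf2 Cre" and "the libraries labelled Upf2 Trp53 Cre" are meant throughout.

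**Figure D1:**
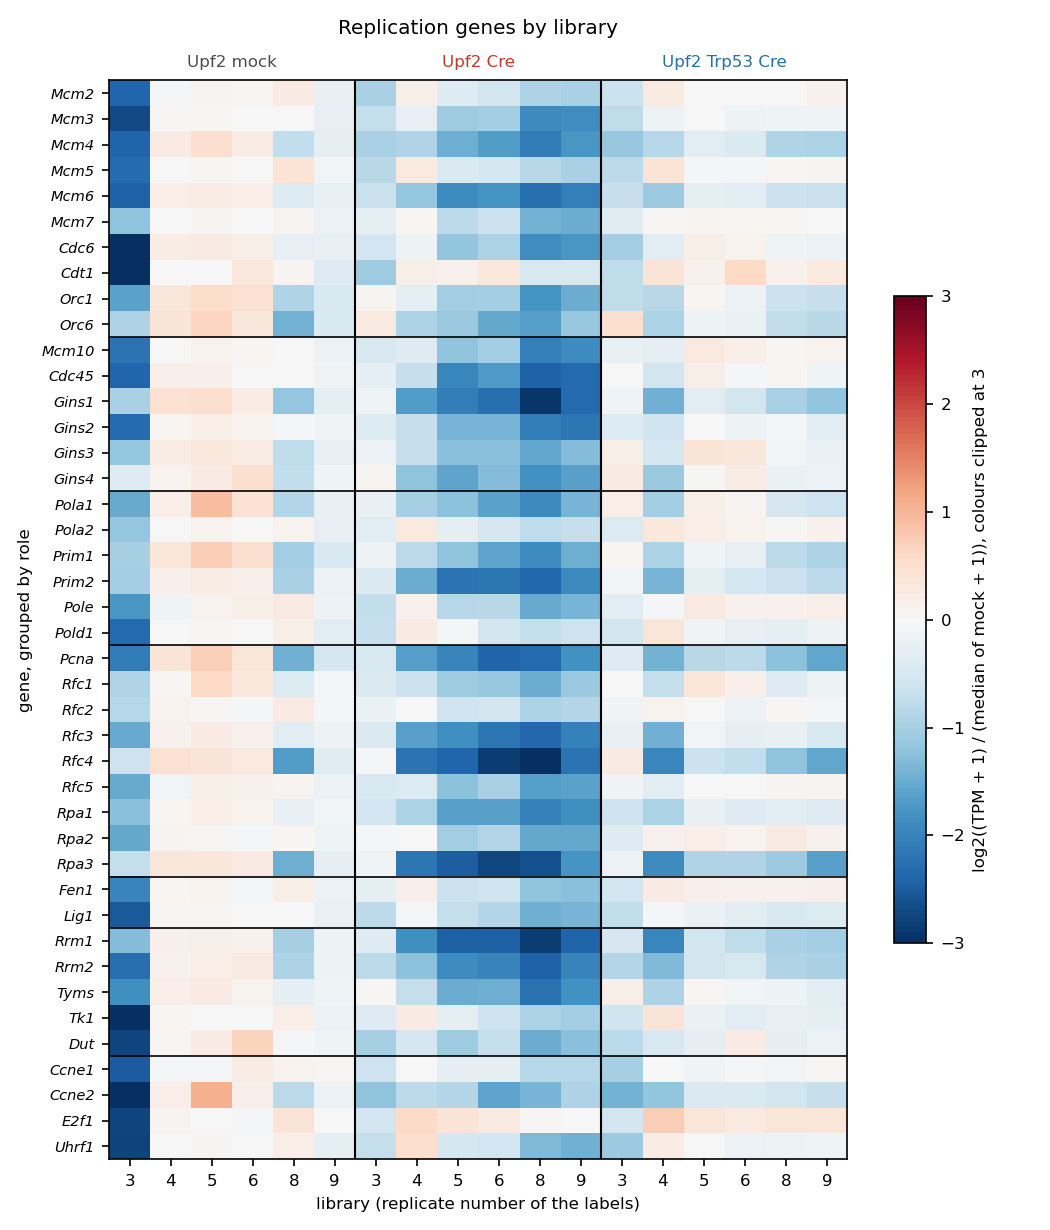
Each cell is the log2 ratio of a gene's TPM + 1 in 1 library to the mock median, for 42 genes grouped by role (vertical axis) and 18 libraries by replicate number (horizontal axis). The mock library numbered 3 is below the mock median in all 42 genes and mock replicate 9 in 40. Upf2 Cre libraries are below it in 29 to 42 genes and Upf2 Trp53 Cre libraries in 25 to 35. The median log2 ratio is -1.91 in mock replicate 3, -0.17 in mock replicate 9 and -1.72 to -1.07 in Upf2 Cre replicates 5, 6, 8 and 9.

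Promoter sequence is shown first, because many of the members are known as E2F targets. RefSeq promoters (250 bases before to 50 after the start, build GRCm38.p6) were matched by symbol for 34 of the 42 genes. Those with an E2F word (TTTCCCGC, TTTCGCGC, TTTGGCGC or TTTGCCGC, on either strand) were 13 of 34, or 38.2%, against 704 of 27025 genes, or 2.6%. A CCAAT word was in 61.8% of member promoters and 41.1% of all promoters, and the CHR word TTTGAA in 11.8% and 20.2%. Printed below in the direction of transcription, with E2F words in capitals, are the promoter with the most E2F words among the members, Mcm6 (helicase subunit, chr1:128359656-128359955, minus strand), that of Rfc3 (clamp loader subunit, chr5:151651159-151651458, minus strand), and that of Mcm5 (helicase subunit, chr8:75109259-75109558, plus strand). The first and second belong to genes that fell in Upf2 Cre against mock with all libraries. The third belongs to a gene that did not pass there, but did without the libraries numbered 3. Overlapping words on opposite strands appear in the Mcm6 and Mcm5 promoters.
Mcm6: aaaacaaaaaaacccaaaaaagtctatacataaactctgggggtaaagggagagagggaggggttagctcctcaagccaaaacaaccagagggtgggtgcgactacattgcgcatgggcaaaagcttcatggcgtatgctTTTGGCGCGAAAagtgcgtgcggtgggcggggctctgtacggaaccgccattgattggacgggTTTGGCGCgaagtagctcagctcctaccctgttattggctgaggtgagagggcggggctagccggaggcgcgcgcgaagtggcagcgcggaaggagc
Rfc3: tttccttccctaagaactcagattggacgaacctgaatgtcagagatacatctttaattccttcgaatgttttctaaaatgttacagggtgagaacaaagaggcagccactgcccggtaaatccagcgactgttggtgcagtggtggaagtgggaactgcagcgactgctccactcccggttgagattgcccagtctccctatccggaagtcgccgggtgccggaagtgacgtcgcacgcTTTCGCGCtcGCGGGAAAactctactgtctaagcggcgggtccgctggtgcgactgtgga
Mcm5: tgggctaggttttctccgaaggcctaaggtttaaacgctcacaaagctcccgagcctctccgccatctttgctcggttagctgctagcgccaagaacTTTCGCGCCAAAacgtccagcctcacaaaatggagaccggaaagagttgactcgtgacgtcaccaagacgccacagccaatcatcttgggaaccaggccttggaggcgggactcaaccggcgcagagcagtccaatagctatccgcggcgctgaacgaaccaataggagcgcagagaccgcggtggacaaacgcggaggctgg

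Genes with and without an E2F word were set side by side. Among the 13 genes with an E2F word, 4 fell in Upf2 Cre against mock (median log2 difference -0.56), and among the 21 without one 11 fell (median -0.83). The share falling over all tested genes was 24.2%. Without the libraries numbered 3 the medians were -1.12 and -1.20. No test was made of this split, and the median transcript GC content of the genes with and without the word also differed, at 51.9% and 48.9%. A match is a description of letters, not of binding.

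In the libraries labelled Upf2 Cre, 20 of the 42 replication genes fell against mock and 0 rose. They were Mcm4, Mcm6, Cdc45, Gins1, Gins2, Gins3, Gins4, Pola1, Prim1, Prim2, Pcna, Rfc1, Rfc3, Rfc4, Rfc5, Rpa1, Rpa3, Rrm1, Rrm2 and Tyms. The background was 24.2% of all tested genes falling and 16.5% rising. The median log2 difference was -0.79 over the members and -0.12 over all tested genes, and members ran from -1.88 for Rfc4 to 0.50 for E2f1. By limma, 24 members were lower and 0 higher at an unadjusted p under 0.05. After median-ratio scaling 18 fell and 0 rose, with a median of -0.68 beside -0.03 over all tested genes. The calls over all genes in that setting are given in the closing section. Without the 3 libraries numbered 3, 38 members fell and 0 rose (background 33.3% and 25.5%) and the median was -1.20. In the full set no member separated the groups (background 2.07% lower and 3.79% higher in Upf2 Cre), whereas without those libraries all Upf2 Cre values lay below all mock values for 20 members (background 15.1% lower and 15% higher), and none the other way. Leaving those libraries out removes the mock library lowest in these same genes and an Upf2 Cre library high in them. Upf2 Cre replicate 4, with a higher member sum, was kept. The larger falls and the separation are thus partly set by that choice and are no separate support. Every other result without the libraries numbered 3 shares this limit. Among single libraries, leaving out mock replicate 3 gave 36 falling members, mock replicate 4 gave 13, mock replicate 5 gave 12, mock replicate 6 gave 13 and Upf2 Cre replicate 8 gave 12. Over all tested genes, falling calls with 1 library left out were fewest without Upf2 Cre replicate 8, at 2552. They were most without Upf2 Cre replicate 3, at 4771.

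**Figure D2:**
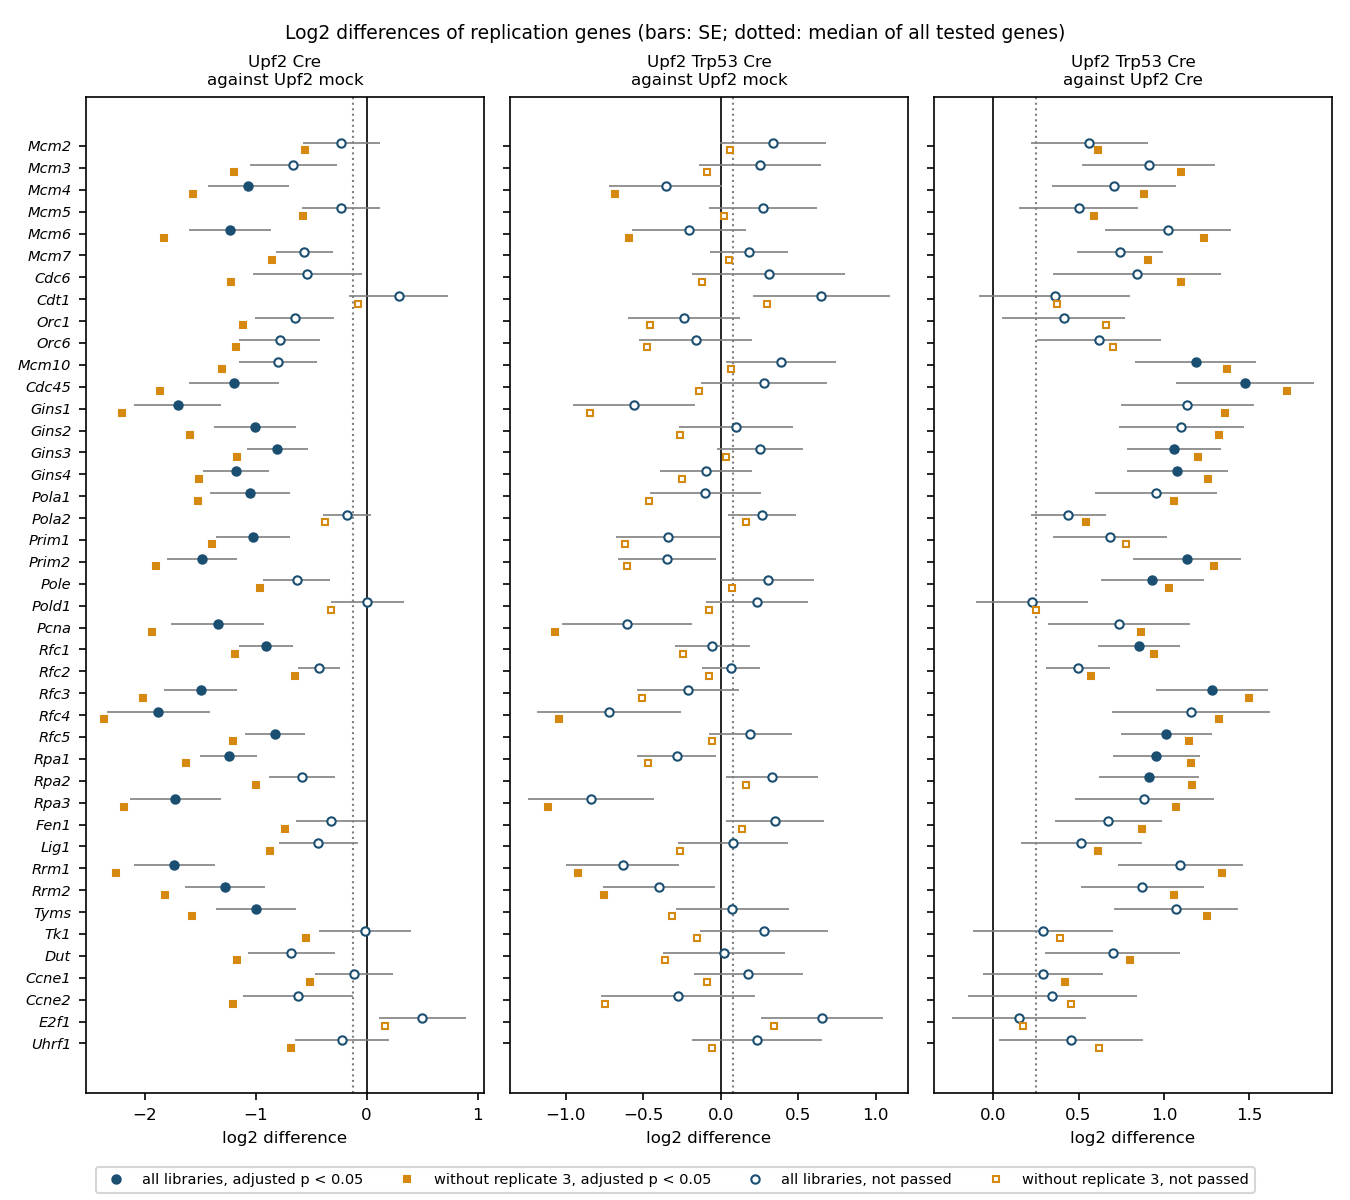
Log2 differences (horizontal axis) of the 42 genes (vertical axis) in 3 comparisons, with all 18 libraries (circles, bars are SE) and without the libraries numbered 3 (squares), filled where the adjusted p is under 0.05. Most genes lie left of 0 in Upf2 Cre against mock, and all 42 lie right of 0 in Upf2 Trp53 Cre against Upf2 Cre, where 11 are filled with all libraries and 33 without those numbered 3.

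Of the origin licensing genes 2 of 10 fell, Mcm6 and Mcm4, and 9 of 10 fell without the libraries numbered 3. Beside these and the role counts below, 24.2% of all tested genes fell, and 33.3% without those libraries. Mcm6, a subunit of the replicative helicase (ENSMUSG00000026355.11, mm10 chr1:128331590-128359664, minus strand), had lowest, median and highest values of 29.5, 163 and 191 TPM in mock, 33.2, 45.1 and 103 TPM in Upf2 Cre and 76.4, 103 and 135 TPM in Upf2 Trp53 Cre. Its lowest mock and its highest Upf2 Cre values were both from replicate 3, and without that number every mock library was above every Upf2 Cre library. It fell by 1.23 on the log2 scale (SE 0.37, limma adjusted p = 0.014).

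Mcm4, another helicase subunit, had 25.9, 141 and 199 TPM in mock, 32.4, 47.0 and 74.7 TPM in Upf2 Cre and 64.2, 76.3 and 112 TPM in Upf2 Trp53 Cre, in the same order of lowest, median and highest. The mock and Upf2 Cre groups overlapped through mock replicate 3. It fell by 1.07 (SE 0.36, limma adjusted p = 0.026). Cdt1, which loads MCM2-7 with CDC6, had 4.62, 49.1 and 61.5 TPM in mock, 23.1, 44.5 and 61.3 TPM in Upf2 Cre and 28.6, 56.8 and 74.9 TPM in Upf2 Trp53 Cre. Replicate 3 was the lowest library of each group and the ranges overlapped. The log2 difference to mock was 0.29 (SE 0.44, limma adjusted p = 0.61) and -0.07 without the libraries numbered 3.

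Among the other licensing genes, log2 differences were -0.23 for Mcm2, -0.66 for Mcm3, -0.23 for Mcm5, -0.56 for Mcm7, -0.53 for Cdc6, -0.65 for Orc1 and -0.78 for Orc6, none of which passed. All 7 passed without the libraries numbered 3, at -0.56 for Mcm2, -1.19 for Mcm3, -0.57 for Mcm5, -0.85 for Mcm7, -1.23 for Cdc6, -1.12 for Orc1 and -1.18 for Orc6. Subunits of the same hexamer thus had unequal differences, from -0.23 to -1.23 with SE of 0.25 to 0.39, although the difference between subunits was not tested. With the adjustment for transcript GC content given below, they ran from -0.21 for Mcm5 to -0.77 for Mcm6, with Mcm2 at -0.57 and Mcm4 at -0.55.

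Helicase activation genes fell in 5 of 6 cases, and in 6 of 6 without the libraries numbered 3. Gins1, a subunit of GINS, had 20.7, 47.3 and 66.9 TPM in mock, 5.37, 9.75 and 43.1 TPM in Upf2 Cre and 16.8, 27.9 and 44.2 TPM in Upf2 Trp53 Cre. The highest value of both Cre groups was in replicate 3. It fell by 1.70 (SE 0.39, limma adjusted p = 0.0034). Gins4 had 39.5, 66.7 and 93.9 TPM in mock, 18.2, 24.1 and 71.0 TPM in Upf2 Cre and 30.2, 63.6 and 80.1 TPM in Upf2 Trp53 Cre. Apart from replicate 3, at 71.0 TPM, each Upf2 Cre library was below each mock library. It fell by 1.18 (SE 0.30, limma adjusted p = 0.0056).

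Cdc45, which joins MCM2-7 and GINS in the active helicase, fell by 1.20, Gins2 by 1.01 and Gins3 by 0.81 (limma adjusted p = 0.025, 0.036 and 0.026). The member that did not pass was Mcm10, a factor of helicase activation, with 5.55, 29.6 and 32.1 TPM in mock, 6.41, 13.2 and 22.4 TPM in Upf2 Cre and 24.4, 31.1 and 36.7 TPM in Upf2 Trp53 Cre. Mock replicate 3 was below every Upf2 Cre library and the other mock libraries were above all of them. The log2 difference was -0.80 (SE 0.35, limma adjusted p = 0.075), and -1.30 with a passing test without the libraries numbered 3. Exons of Gins2 overlap Gse1 and those of Cdc45 overlap Ufd1 on the opposite strand. The kit is stranded but strand use in counting is not given in the sources used here, so shared reads cannot be told apart.

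Polymerase and primase genes fell in 3 of 6 cases. Prim2, the large primase subunit, had 12.8, 27.1 and 31.7 TPM in mock, 4.51, 5.87 and 19.8 TPM in Upf2 Cre and 9.66, 17.8 and 25.6 TPM in Upf2 Trp53 Cre. Only the Upf2 Cre library numbered 3, at 19.8 TPM, entered the mock range. It fell by 1.48 (SE 0.32, limma adjusted p = 0.0021). Prim1, the catalytic primase subunit, had 13.5, 28.8 and 48.9 TPM in mock, 7.11, 10.9 and 25.7 TPM in Upf2 Cre and 14.3, 20.2 and 30 TPM in Upf2 Trp53 Cre. The groups overlapped. It fell by 1.02 (SE 0.33, limma adjusted p = 0.022).

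Pola1, the catalytic subunit of the polymerase that extends primers, fell by 1.05 (limma adjusted p = 0.026). Its partner Pola2 differed by -0.18 and Pole, the leading-strand polymerase, by -0.63, and neither passed, while Pole alone of them passed without the libraries numbered 3, at -0.96. Pold1, the catalytic subunit of the lagging-strand polymerase, had 19.1, 101 and 115 TPM in mock, 61.0, 67.1 and 120 TPM in Upf2 Cre and 68.3, 87.5 and 130 TPM in Upf2 Trp53 Cre. The groups overlapped widely. Its log2 difference to mock was 0.01 (SE 0.33, limma adjusted p = 0.99), and -0.32 without a passing test when the libraries numbered 3 were left out.

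Clamp, clamp loader and single-strand binding genes fell in 7 of 9 cases, and in 9 of 9 without the libraries numbered 3. Rpa1, the large subunit of RPA, had 54.5, 132 and 152 TPM in mock, 31.9, 41.9 and 88.6 TPM in Upf2 Cre and 68.0, 100.4 and 113 TPM in Upf2 Trp53 Cre. The overlap of mock with Upf2 Cre came from replicate 3 of mock, at 54.5 TPM. It fell by 1.24 (SE 0.26, limma adjusted p = 0.0018), the smallest adjusted p among the 42 genes in this comparison. Rfc3, a clamp loader subunit, had 18.2, 53.7 and 64.3 TPM in mock, 9.74, 13.3 and 39.7 TPM in Upf2 Cre and 19.2, 44.5 and 50.8 TPM in Upf2 Trp53 Cre. Replicate 3 gave the lowest mock and the highest Upf2 Cre value. It fell by 1.49 (SE 0.33, limma adjusted p = 0.0025).

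Pcna, the sliding clamp (ENSMUSG00000027342.14, mm10 chr2:132249162-132253314, minus strand), had 80.2, 346 and 570 TPM in mock, 65.0, 92.6 and 249 TPM in Upf2 Cre and 117, 170 and 264 TPM in Upf2 Trp53 Cre. Without replicate 3 all mock libraries exceeded all Upf2 Cre libraries. It fell by 1.34 (SE 0.42, limma adjusted p = 0.017). Its near-identical pseudogene Pcna-ps2 had 4.99% of the level of Pcna, and the pseudogene copies of 8 other members had at most 2.33% of their parent's level.

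Rfc4 fell by 1.88, Rpa3 by 1.72, Rfc1 by 0.91 and Rfc5 by 0.83 (limma adjusted p = 0.0049, 0.0039, 0.0074 and 0.020). Rfc4 shares exonic bases with Eif4a2 and Rfc5 with Wsb2 on the opposite strand. Rfc2, with a log2 difference of -0.43, did not pass. Rpa2, the middle subunit of RPA, had 38.1, 112 and 120 TPM in mock, 38.3, 57.4 and 113 TPM in Upf2 Cre and 86.2, 123 and 136 TPM in Upf2 Trp53 Cre. Mock replicate 3 and the lowest Upf2 Cre library were nearly equal. The log2 difference was -0.58 (SE 0.29, limma adjusted p = 0.11), and -1.0 with a passing test without the libraries numbered 3.

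**Figure D3:**
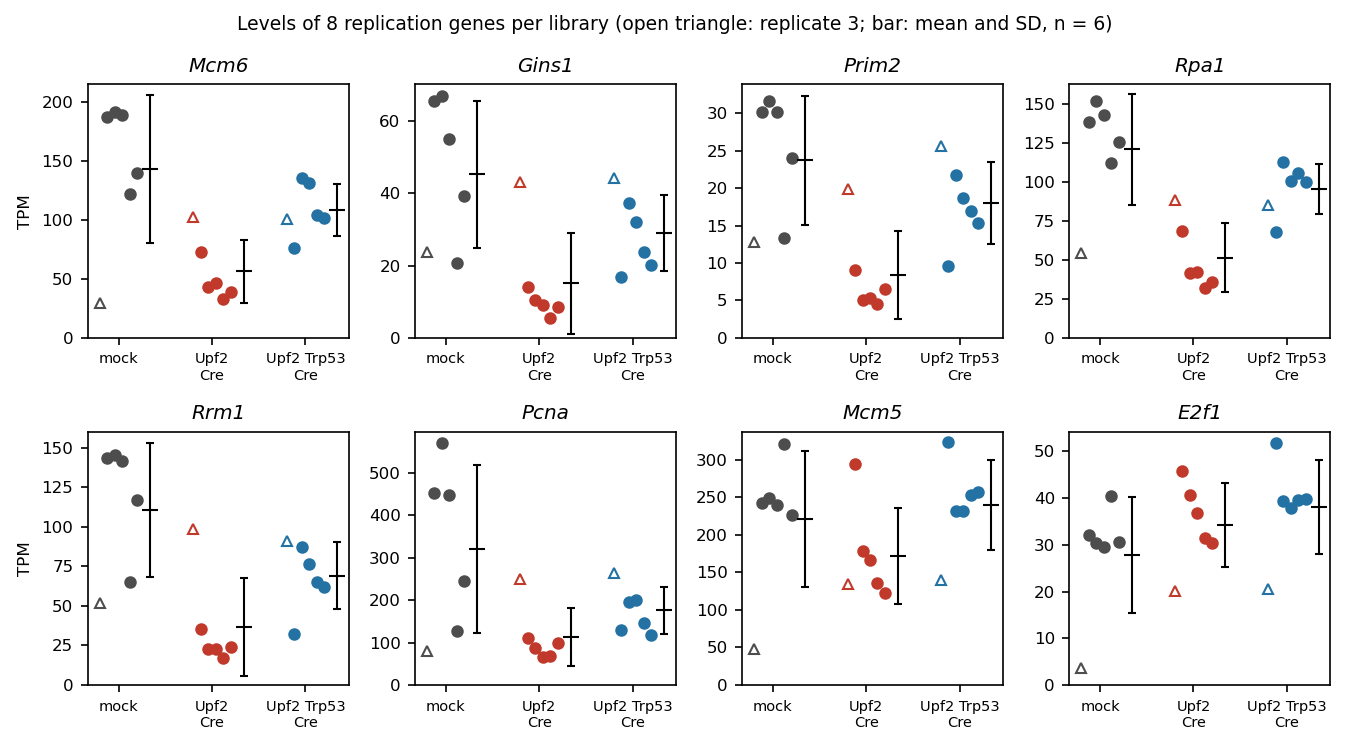
TPM (vertical axis) of 8 genes in each library by group, with open triangles for replicate 3 and bars for mean and SD of 6 libraries. For Mcm6 the Upf2 Cre libraries other than replicate 3 lie below the mock libraries other than replicate 3, and for E2f1 the groups overlap.

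Neither Okazaki fragment gene passed with all libraries, and both passed without those numbered 3. Lig1, the ligase that joins fragments, had 23.9, 143 and 146 TPM in mock, 50.8, 80.0 and 138 TPM in Upf2 Cre and 84.7, 111 and 137 TPM in Upf2 Trp53 Cre. The mock libraries other than replicate 3 overlapped the Upf2 Cre group through Upf2 Cre replicate 4, at 138 TPM. Its log2 difference was -0.44 (SE 0.35, limma adjusted p = 0.33), and -0.87 without the libraries numbered 3. Fen1, the flap nuclease, had 37.2, 150.2 and 169.6 TPM in mock, 62.4, 97.1 and 168 TPM in Upf2 Cre and 101, 165 and 178 TPM in Upf2 Trp53 Cre. Mock replicate 3 was again below all Upf2 Cre libraries. The log2 difference was -0.32 (SE 0.32, limma adjusted p = 0.42), and -0.73 without the libraries numbered 3.

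Nucleotide supply genes fell in 3 of 5 cases, the ribonucleotide reductase subunits Rrm1 and Rrm2 and the thymidylate synthase gene Tyms, and in 5 of 5 without the libraries numbered 3. Rrm1 had 51.7, 129 and 145 TPM in mock, 17.2, 23.4 and 98.3 TPM in Upf2 Cre and 32.4, 70.7 and 91.2 TPM in Upf2 Trp53 Cre. The Upf2 Cre library numbered 3 was far above the other 5 of its group. It fell by 1.73 (SE 0.37, limma adjusted p = 0.0020). Rrm2, the S-phase subunit, had 88.3, 428 and 516 TPM in mock, 78.9, 111 and 243 TPM in Upf2 Cre and 170, 230 and 304 TPM in Upf2 Trp53 Cre. It had the highest mock median of the 42 genes. It fell by 1.27 (SE 0.36, limma adjusted p = 0.010).

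Tyms fell by 1.00 (limma adjusted p = 0.035), and Dut, the dUTPase, differed by -0.68 without passing. Tk1, the thymidine salvage kinase of S phase, had 9.83, 88.3 and 102 TPM in mock, 42.7, 62.1 and 104 TPM in Upf2 Cre and 57.7, 73.4 and 115 TPM in Upf2 Trp53 Cre. The groups overlapped. Its log2 difference was -0.01 (SE 0.41, limma adjusted p = 0.98), and it fell by 0.55 without the libraries numbered 3. Rrm2b, the p53-linked subunit of the same reductase and not a member, was at 1.89 to 3.73 TPM in mock and 1.27 to 2.52 TPM in Upf2 Cre, a log2 difference of -0.30 that did not pass (limma adjusted p = 0.16).

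None of the 4 genes of G1/S control and methylation maintenance passed, and 3 fell without the libraries numbered 3. E2f1, the activating E2F factor, had 3.69, 30.6 and 40.4 TPM in mock, 20.1, 34.1 and 45.8 TPM in Upf2 Cre and 20.5, 39.5 and 51.8 TPM in Upf2 Trp53 Cre. Replicate 3 was the lowest library in every group. The log2 difference was 0.50 (SE 0.39, limma adjusted p = 0.31) and 0.17 without the libraries numbered 3, where it also did not pass. Ccne1, a cyclin E gene, had 6.52, 41.2 and 47.9 TPM in mock, 22.3, 29.8 and 40.9 TPM in Upf2 Cre and 20.2, 39.5 and 42.5 TPM in Upf2 Trp53 Cre. Its log2 difference was -0.11 (SE 0.35, limma adjusted p = 0.81).

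Ccne2, the other cyclin E gene, had 0.341, 14.2 and 30.7 TPM in mock, 4.12, 6.28 and 7.83 TPM in Upf2 Cre and 4.70, 8.95 and 10.3 TPM in Upf2 Trp53 Cre. Mock replicate 3 was the lowest of all 18 libraries, and the mock median was above the highest value of both Cre groups. Its log2 difference was -0.62 (SE 0.50, limma adjusted p = 0.32). Uhrf1, which guides maintenance methylation at forks, differed by -0.22 without passing.

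The log2 differences of the members also followed transcript GC content. Over the 42 genes the correlation with GC of the longest coding transcript (GENCODE M21) was 0.73 in Upf2 Cre against mock, and it was 0.54 over the 15208 tested genes with a GC value. These are descriptions across genes that share libraries and amplification. Of the 14 members with the lowest GC (36.3% to 47.3%) 11 fell, with a median of -1.15, against a median of -0.50 over tested genes in that GC range. Of those tested genes 40.4% fell. Of the 14 in the middle 8 fell (median -0.82, genes of the same range -0.28 with 31.8% falling). Of the 14 with the highest GC (51.9% to 60.7%) 1 fell, Gins2 (median -0.22, genes of the same range 0.34 with 7.18% falling). The count in that highest group was thus near the share of its GC range.

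After each library was adjusted for transcript GC, 10 members fell and 0 rose (background 15.1% falling and 13.9% rising), all 42 had a negative difference, and the median was -0.53. With that adjustment and without the libraries numbered 3, 41 fell and 0 rose (background 26.5% falling and 26.6% rising), and the median was -0.95. The groups of 14 from low to high GC had 13, 14 and 14 falling members. Of tested genes in the same ranges 26.8%, 29.3% and 25.1% fell. The part of GC content in the library differences was not tested further.

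**Figure D4:**
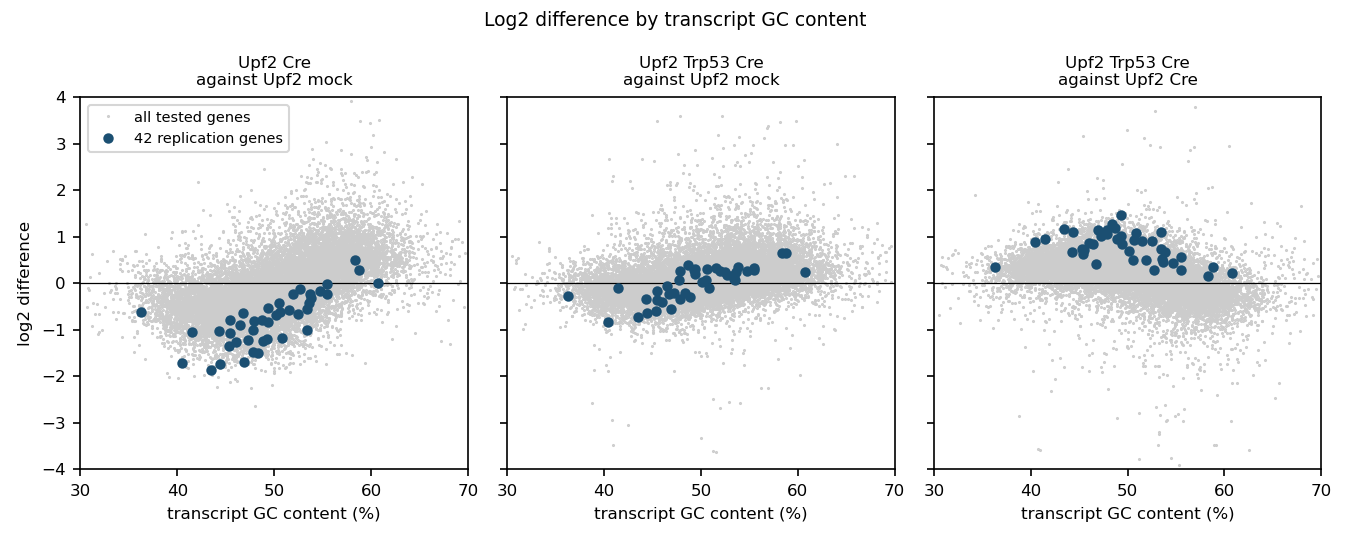
Log2 difference (vertical axis) against transcript GC content in percent (horizontal axis) for the 42 genes (large points) and all tested genes (small points) in 3 comparisons. In Upf2 Cre against mock the points of both kinds rise with GC content and most of the 42 genes lie in the lower part of the cloud at their GC content.

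**Figure D5:**
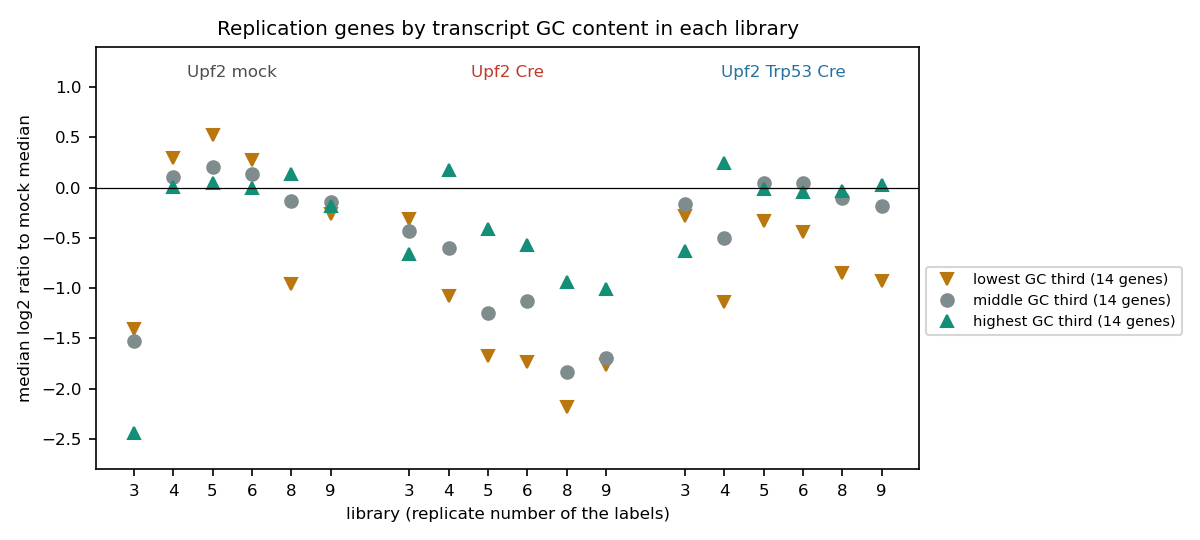
Median log2 ratio to the mock median (vertical axis) over 14 genes of low, middle or high transcript GC, per library (horizontal axis). In replicates 4, 5, 6, 8 and 9 of both Cre groups the low-GC genes are lower than the high-GC genes. Mock replicates 8 (-0.95 for low and 0.14 for high GC) and 9 have the same order. In mock replicates 3, 4, 5 and 6 and in replicate 3 of both Cre groups the order is the opposite.

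Genes of related processes were read beside the members. In Upf2 Cre against mock 13 of 32 other licensing and fork genes fell and 1 rose, 6 of 18 other nucleotide synthesis genes fell and 2 rose, 4 of 9 fork-coupled chromatin assembly genes fell, 8 of 21 E2F, Rb and G1 cyclin genes fell and 1 rose, and 21 of 25 mitosis genes fell. Their medians were -0.69, -0.35, -0.72, -0.18 and -0.98, beside -0.12 over all tested genes. Of all tested genes 24.2% fell and 16.5% rose. Without the libraries numbered 3 the falling counts were 22, 10, 7, 10 and 25 of the same lists, beside 33.3% of all tested genes. Gmnn, the inhibitor of CDT1, fell by 1.63, and Mcmbp, an MCM-binding protein, by 0.69, whereas Pold4, the small subunit of polymerase delta, rose by 1.09 (limma adjusted p = 0.0030, 0.0061 and 0.0022).

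For nucleotides, the deoxycytidine kinase gene Dck fell by 1.31 and Impdh2, of guanine nucleotide synthesis, by 1.03, and the mitochondrial kinase gene Tk2 rose by 0.73 (limma adjusted p = 0.0025, 0.0014 and 0.0012). Among chromatin genes Cdca7 fell by 1.23, the histone chaperone Nasp by 0.89 and Asf1a by 0.76 (limma adjusted p = 0.0092, 0.021 and 0.024). Cyclin A2 (Ccna2) fell by 1.37, Skp2 by 1.07 and E2f5 by 0.95 (limma adjusted p = 0.0059, 0.0070 and 0.011). Radial glia markers moved as well, with 6 of 10 falling and 0 rising (background 24.2% and 16.5%), or 7 falling and 1 rising without the libraries numbered 3 (background 33.3% and 25.5%). Of the astrocyte markers 4 of 6 fell and 0 rose, with and without those libraries. Of the tested oligodendrocyte-lineage markers 1 of 5 fell and 0 rose, likewise in both settings. Of the intermediate-progenitor markers 1 of 3 tested rose, Gadd45g by 3.44, or by 3.67 without those libraries, and of the neuron markers 1 of 5 rose and 1 fell, or 2 rose and 1 fell without them. The part of these markers in the replication result was not tested.

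Among CDK inhibitors, Cdkn1a rose by 2.46 (SE 0.33, limma adjusted p = 7.4e-05), from 98.3 to 331 TPM in mock to 489 to 1575 TPM in Upf2 Cre, with no overlap. Cdkn2c fell by 1.55 and Cdkn1c by 1.72 (limma adjusted p = 0.00027 and 0.0065).

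In the libraries labelled Upf2 Trp53 Cre the replication genes did not pass against mock in either direction. By limma, 0 of 42 rose and 0 fell, beside a background of 10.4% rising and 1.09% falling, and 0 members had an unadjusted p under 0.05 in either direction. The median log2 difference was 0.08 over the members and 0.08 over all tested genes. Without the libraries numbered 3, 7 fell (background 4.47%, or 7.70% in the lowest GC range): Mcm4, Mcm6, Pcna, Rfc4, Rpa3, Rrm1 and Rrm2, all among the 14 members of lowest GC. The background was 18.9% rising, 0 members rose, and the median was -0.25. Without mock replicate 3 alone 2 fell. With the GC adjustment 0 rose and 0 fell (background 7.47% and 3.92%, with 1 member lower at an unadjusted p under 0.05 by limma). With that adjustment and no libraries numbered 3, 0 rose and 13 fell (background 14.3% and 13.9%). With all libraries no member separated Upf2 Trp53 Cre from mock (background 7.08% higher and 0.841% lower). Without those numbered 3, Rpa2 alone was higher in every Upf2 Trp53 Cre library and none was lower (background 15.8% and 1.97%).

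The 5 members with the smallest adjusted p in that comparison were Rpa3, Rrm1, E2f1, Rfc4 and Cdt1. Rpa3, the small subunit of RPA, had 20.2, 58.0 and 73.9 TPM in mock, 7.92, 11 and 53.6 TPM in Upf2 Cre and 15, 28.7 and 51.5 TPM in Upf2 Trp53 Cre. Its log2 difference to mock was -0.84 (SE 0.41, limma adjusted p = 0.21), and it fell by 1.11 without the libraries numbered 3. The range of Upf2 Trp53 Cre lay within that of mock except at its low end.

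Rrm1 differed from mock by -0.63 (SE 0.37, limma adjusted p = 0.30), Rfc4 by -0.72 (SE 0.46, adjusted p = 0.36) and Pcna by -0.60 (SE 0.42, adjusted p = 0.40). E2f1 differed by 0.65 (SE 0.39, limma adjusted p = 0.32) and Cdt1 by 0.65 (SE 0.44, adjusted p = 0.39). Ccne1 was at 0.18 and Ccne2 at -0.28, neither passing. These directions follow GC as before, with a correlation of 0.76 over the 42 genes and 0.35 over tested genes.

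Of the inhibitors, Cdkn1a fell against mock by 1.76 (limma adjusted p = 0.0012), to between 37.5 and 127 TPM, and Cdkn2a rose by 1.34 (limma adjusted p = 0.00065). In the other lists, 0 of 32 licensing and fork genes and 0 of 25 mitosis genes rose or fell, while 2 of 18 nucleotide synthesis genes rose, Tk2 and Shmt2, by 0.91 and 0.96 (limma adjusted p = 0.00020 and 0.0014). Cell type markers were called here as well. Among those tested, 3 of 5 for neurons and 1 of 3 for intermediate progenitors rose. For radial glia 1 of 10 fell, for astrocytes 1 of 6 fell, and 0 of 5 oligodendrocyte-lineage markers passed. No marker in these lists was called in the other direction, and their part in the result was not tested. Of all tested genes 10.4% rose and 1.09% fell.

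In the direct comparison of the Cre groups, which uses the same Upf2 Cre libraries as the comparison with mock, 11 of 42 replication genes rose in Upf2 Trp53 Cre and 0 fell. The background was 11.8% rising and 2.46% falling, so 11 of 42 is to be read beside a share of 11.8%. The 11 were Mcm10, Cdc45, Gins3, Gins4, Prim2, Pole, Rfc1, Rfc3, Rfc5, Rpa1 and Rpa2. All 42 log2 differences were positive, with a median of 0.85 against 0.25 over all tested genes, and at an unadjusted p under 0.05, 24 members were higher and 0 lower.

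The count depended on scaling. Median-ratio scaling, which brings the median of all genes from 0.25 to 0.02, left 0 members passing with 40 positive differences and a median of 0.58. Quantile normalization left 3 passing with 41 positive and a median of 0.65. Over all tested genes the split of rising to falling calls was 1791 to 374 in TPM, 305 to 727 after median-ratio scaling and 539 to 592 after quantile normalization. The GC adjustment left 0 passing (background 2.57% rising and 3.58% falling), with 41 positive and a median of 0.55. At an unadjusted p under 0.05 by limma, 16 members were higher after median-ratio scaling and 17 after the GC adjustment. Members therefore exceeded the median of all genes by 0.60 in TPM, 0.56 after median-ratio scaling and 0.62 after quantile normalization, on the log2 scale.

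Without the libraries numbered 3, 33 members rose and 0 fell (background 28% and 8.71%), and with the GC adjustment added 28 rose and 0 fell (background 15.5% and 14.5%). Leaving out Upf2 Cre replicate 3 alone gave 24, replicate 5 gave 2, replicate 6 gave 3, replicate 8 gave 0 and replicate 9 gave 1. For Upf2 Trp53 Cre, replicate 3 left out gave 6, replicate 4 gave 18, replicate 5 gave 0 and replicate 6 gave 2. Over all tested genes, rising calls with 1 library left out were fewest without Upf2 Cre replicate 8, at 427. They were most without Upf2 Cre replicate 3, at 4139, beside 1791 with all libraries. The member counts of 0 and 24 without these same libraries thus moved with the calls over all tested genes. With all libraries only Mcm10 and Rfc5 had each Upf2 Trp53 Cre value above each Upf2 Cre value (background 1.87% higher and 0.848% lower), and 15 members did without the libraries numbered 3 (background 11.3% higher and 3.57% lower). None was lower in every library.

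By role, 4 of 6 helicase activation genes, 2 of 6 polymerase and primase genes and 5 of 9 clamp, clamp loader and single-strand binding genes rose. None of the 10 licensing genes, 2 Okazaki genes, 5 nucleotide supply genes or 4 genes of G1/S control rose. Without the libraries numbered 3 the counts by role, in the order of the list of roles above, were 7 of 10, 6 of 6, 4 of 6, 9 of 9, 2 of 2, 4 of 5 and 1 of 4. Of all tested genes 11.8% rose, and 28% without those libraries.

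Rfc3 had the smallest adjusted p, with a log2 difference of 1.28 (SE 0.33, limma adjusted p = 0.019) between the values given above. Its 19.2 TPM minimum in Upf2 Trp53 Cre was below the Upf2 Cre maximum of 39.7 TPM. Gins3, a GINS subunit, had 6.00, 14.7 and 18.6 TPM in mock, 4.35, 5.56 and 12.9 TPM in Upf2 Cre and 9.82, 15.4 and 19.5 TPM in Upf2 Trp53 Cre. The overlap of the Cre groups came from Upf2 Cre replicate 3, at 12.9 TPM. It rose by 1.06 (SE 0.27, limma adjusted p = 0.020).

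Rfc5, a clamp loader subunit, had 15.3, 45.7 and 52.0 TPM in mock, 13.8, 20.8 and 34.3 TPM in Upf2 Cre and 36.4, 46.1 and 48.6 TPM in Upf2 Trp53 Cre. The Cre groups did not overlap. It rose by 1.02 (SE 0.27, limma adjusted p = 0.021). Rpa1 rose by 0.96 (SE 0.26, limma adjusted p = 0.023).

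Cdc45 had 10.8, 59.8 and 66.8 TPM in mock, 10.3, 16.3 and 49.5 TPM in Upf2 Cre and 40.5, 58.5 and 67.5 TPM in Upf2 Trp53 Cre. Again only Upf2 Cre replicate 3 reached the Upf2 Trp53 Cre range. It rose by 1.48 (SE 0.40, limma adjusted p = 0.024), the largest difference of the 42 genes in this comparison.

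Several members with large falls against mock did not pass here. Gins1 differed by 1.14 (SE 0.39, limma adjusted p = 0.055), Mcm6 by 1.02 (SE 0.37, adjusted p = 0.064), Rfc4 by 1.16 (SE 0.46, adjusted p = 0.088), Rrm2 by 0.87 (SE 0.36, adjusted p = 0.095) and Pcna by 0.74 (SE 0.42, adjusted p = 0.21), and all 5 passed without the libraries numbered 3. E2f1 differed by 0.15, Ccne1 by 0.29, Ccne2 by 0.35 and Cdt1 by 0.36, with adjusted p from 0.56 to 0.80 by limma. Of these Ccne1 alone passed without the libraries numbered 3, at 0.42.

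The correlation of the log2 difference with GC over the 42 genes was -0.42, and -0.39 over tested genes. In the groups of 14 members from low to high GC 1, 10 and 0 rose. Of tested genes in the same ranges 11.9%, 20.8% and 6.83% rose. Without the libraries numbered 3 the member counts were 10, 14 and 9, beside shares of 32.0%, 45.8% and 15.6%. Mitosis genes rose in 17 of 25 cases with a median of 0.91 (background 11.8%), and in 11 of 25 after the GC adjustment (background 2.57%). Among other licensing and fork genes 2 of 32 rose, Pole3 by 1.20 and Mtbp by 1.00 (limma adjusted p = 0.010 and 0.045). Of nucleotide synthesis genes 3 of 18 rose, Impdh2 by 0.94, Ctps by 1.11 and Umps by 1.04 (limma adjusted p = 0.0091, 0.027 and 0.033), and of E2F, Rb and cyclin genes 1 of 21 rose, Cdk2 by 0.78 (limma adjusted p = 0.047). Beside the 11.8% of all tested genes that rose, the 2 of 32 and 1 of 21 were lower, and the 3 of 18 not far above. Cdkn1a fell by 4.22 between the Cre groups (SE 0.33, limma adjusted p = 3.7e-08) with no overlap, while Cdkn2a rose by 1.52 and Cdkn2c by 1.37 (limma adjusted p = 0.00040 and 0.0021).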

How the data were processed

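Total RNA of 18 cultures was sequenced as stranded libraries, per the labels' protocols. The authors deposited 1 table of TPM per gene. Its alignment used STAR and the mm10 build, per the submitters' processing notes; the STAR version, the quantifier, the annotation and the strand setting are not given in the sources used here. Gene IDs were matched to GENCODE M21.

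A gene was tested (15216 were) when 6 or more libraries had 1 TPM or more. Values were taken as log2(TPM + 1) and fitted as 3 group means with limma 3.58.1 (R 4.3.3), with empirical Bayes and a mean-variance trend. Tests were two-sided, with Benjamini-Hochberg adjustment over all genes tested and a threshold of 0.05. The code was tested on simulated data. TPM keeps no depth, so the depth per library and its counting error are unknown.

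The members and all gene lists were chosen with earlier results of these data known. In full are given, per role, the 2 members with the smallest adjusted p and the 1 with the largest in Upf2 Cre against mock, the 5 with the smallest adjusted p in each other comparison, and Pcna, Ccne1, Ccne2, E2f1 and Cdt1. From other pathway lists up to 3 genes with the smallest adjusted p are named, besides Upf2, Trp53, Cdkn1a and Rrm2b.

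Alternatives were a pseudocount of 0.1, no minimum, a minimum mean of 5 TPM, no trend, scaling by median ratios, quantile normalization, a replicate block, only the compared groups, each library left out and the 3 libraries numbered 3 left out together. Added after seeing the data was a GC adjustment, in which a natural spline of 5 degrees of freedom on the GC content of the longest coding transcript was subtracted in each library, alone, with those 3 libraries left out and with the block. Pseudogene copies were found with BLAST 2.17.0, and figures drawn with Python 3.11.15 and Matplotlib 3.10.9.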

Additional observations from a re-analysis of the deposited data

Results flagged for a closer look

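In 38 of 126 sets of 6 libraries (42 genes in 3 groups) 1 library stood apart by Dixon's criterion for 6 values. Chance gives about 1 in 20 for a single set of normal values. The 42 genes share the same libraries, so the sets are not independent and 38 of 126 cannot be weighed against that rate. The causes were not tested.

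The mock library numbered 3 was far below the other mock libraries for 19 genes. Among licensing genes it had 26.2 TPM for Mcm2, 41.2 TPM for Mcm3, 48.1 TPM for Mcm5, 125 TPM for Mcm7 and 1.44 TPM for Cdc6. In helicase activation it had 5.55 TPM for Mcm10, 10.8 TPM for Cdc45 and 10.8 TPM for Gins2. For polymerases it had 7.29 TPM for Pole and 19.1 TPM for Pold1. In the clamp loader and RPA group it had 35.7 TPM for Rfc2, 15.3 TPM for Rfc5 and 38.1 TPM for Rpa2. The Okazaki genes stood at 37.2 TPM for Fen1 and 23.9 TPM for Lig1, and Tk1 stood at 9.83 TPM. The G1/S control genes were at 6.52 TPM for Ccne1, 3.69 TPM for E2f1 and 42.5 TPM for Uhrf1.

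The Upf2 Cre library numbered 3 was far above the rest of its group for 9 genes. These were Orc6 at 61.5 TPM, Gins1 at 43.1 TPM, Gins4 at 71.0 TPM, Prim2 at 19.8 TPM and Pcna at 249 TPM. The others were Rfc3 at 39.7 TPM, Rfc4 at 104 TPM, Rpa3 at 53.6 TPM and Rrm1 at 98.3 TPM. Replicate 4 of that group was far above for Mcm5 at 294 TPM, Pole at 29.3 TPM and Uhrf1 at 419 TPM.

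The Upf2 Trp53 Cre library numbered 3 was far below its group for 6 genes, with 89.2 TPM for Mcm2, 163 TPM for Mcm3, 223 TPM for Mcm7, 86.2 TPM for Rpa2, 101 TPM for Fen1 and 20.2 TPM for Ccne1. Replicate 4 of that group was far above for Tk1, at 115 TPM.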

How the results depend on the processing

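The median over the 42 genes kept its direction in Upf2 Cre against mock (-1.20 to -0.53) and in Upf2 Trp53 Cre against Upf2 Cre (0.55 to 0.99) under all alternatives. In Upf2 Trp53 Cre against mock, where it was 0.08, it changed sign. It ran from -0.35 to 0.18, with -0.08 after median-ratio scaling, -0.07 with the GC adjustment and -0.24 without mock replicate 3. Counts moved more. Against the 20 genes that fell in Upf2 Cre, 13 fell with no minimum, 38 without the 3 libraries numbered 3, 10 with the GC adjustment, 41 with both of these and 11 with the GC adjustment and the replicate block, and leaving out 1 library gave 12 to 36. Against 0 genes that fell in Upf2 Trp53 Cre compared with mock, 7 fell without the libraries numbered 3, 13 with the GC adjustment as well, and leaving out 1 library gave 0 to 2. Against 11 genes that rose between the Cre groups, 0 rose after median-ratio scaling, 3 after quantile normalization, 19 with only the compared groups fitted, 33 without the libraries numbered 3, 0 with the GC adjustment, 28 with both of these and 1 with the GC adjustment and the replicate block, and leaving out 1 library gave 0 to 24.

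Differences that changed sign and also passed in limma numbered 4, each with the GC adjustment and without the libraries numbered 3: Cdt1 at -0.75, Pold1 at -1.08 and E2f1 at -0.48 in Upf2 Cre, and Lig1 at -0.56 in Upf2 Trp53 Cre, all against mock. Other sign changes did not pass: in Upf2 Trp53 Cre against mock 24 differences were positive, 11 without the libraries numbered 3, 15 with the GC adjustment and 2 with both. The cause was not tested.

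Over all tested genes, rising and falling calls in Upf2 Cre numbered 2506 and 3686 (median-ratio scaling 3078 and 3176), with ranges of 1916 to 4041 and 2291 to 5070. In Upf2 Trp53 Cre against mock they numbered 1586 and 166 (median-ratio scaling 974 and 480), with ranges of 974 to 2874 and 112 to 2117. Between the Cre groups they ranged from 305 to 4264 and from 171 to 2206.

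The labels do not say what a shared replicate number marks, and the criterion for treating libraries as paired, a correlation over 0.1 in every pair, was not met. As a hint from the data, 14 of 18 pairs of same-numbered libraries had correlated deviations over 0.1 (range -0.171 to 0.742) and 11 of 18 libraries correlated best with their own number. With the replicate block alone 20 genes fell in Upf2 Cre, 0 passed in Upf2 Trp53 Cre against mock and 16 rose between the Cre groups. Depth is unknown for TPM, so its limits could not be given.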
